A study of Mus musculus with 10 samples.

Results

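Activated_2 is 1 of the 5 fine states into which the deposited annotation divides the microglia of the mouse hippocampus, and it coincides with microglial subcluster 7. Its members were taken from the cell class and fine-state names alone: 3982 cells of 21630 microglia (18.4%), of 68914 annotated cells (5.78%) and of 108266 barcodes in all. Of the 6866 microglia in an activated state, 58.0% carried this name. The state is marked by Spp1, Lpl and Apoe. The deposited table holds names and map positions but no gene values, so neither these markers nor those of any other cell type could be read, and the name Activated_2 is used as deposited.

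The design names 10 injected mice, wild-type male C57BL/6 and 11 weeks old, and there were 10 libraries of hippocampal cells sorted as alive 3 days after injections into both hippocampi. The controls received vehicle (n = 4). The other groups received full-length neurofilament light chain, abbreviated FL-NfL, or the coiled-coil segment of that protein, CC-NfL, each at a concentration of 1 mg/ml (n = 3 for each), and the question was how brain cells respond to this protein outside neurons. A control injection of an unrelated protein was not analysed here, so a response to NfL and a response to injected protein in general cannot be told apart.

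Microglia are the resident phagocytes of the brain parenchyma. In the healthy brain they survey the tissue in a homeostatic state, and near damage, protein deposits or dying cells they change shape, engulf material and alter what they express. Spp1 encodes osteopontin, a secreted glycoprotein that binds integrins. Lpl encodes lipoprotein lipase, which releases fatty acids from lipoproteins, and Apoe encodes the lipid carrier apolipoprotein E; all of them are known from microglia that surround amyloid plaques or take up myelin. Neurofilament light chain is an intermediate filament protein of axons that leaks out of injured neurons and serves as a marker of axonal damage in body fluids.

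Libraries held 5434 to 17837 barcodes, 3150 to 14141 annotated cells and 939 to 4137 microglia. Batch b1 held 2 libraries of each group, and b2 held 2 vehicle, 1 FL-NfL and 1 CC-NfL library. Of the 3982 Activated_2 cells, 59 had a barcode that was also an annotated cell of another library, and 1 barcode occurred in Activated_2 cells of more than 1 library. Vehicle library 1 stood apart: it held 46 Activated_2 cells, the fewest of any library, against 145 to 410 in the other vehicle libraries, and results that rest on it are given with and without it. Limma's p-values below rest on a spread pooled over few states that are not independent, so they may be too small.

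The Activated_2 cells occupied a region of the deposited microglial map between the homeostatic cells on one side and the Activated_3 cells on the other. Of the 30 nearest microglia of an Activated_2 cell, on average 81.8% carried the same name, 7.83% were Activated_1, 5.49% Homeostatic, 2.99% Activated_3 and 1.86% Proliferating. All 30 neighbours shared the name for 29.2% of the cells, and fewer than 50% did for 11.4%. Map and names were made from the same cells, so these shares are a description with no test. Macrophages, the other phagocytes of the brain and its borders, lay apart from the state. In the map of all cells, 99.996% of the neighbours of Activated_2 cells were microglia and 0.0042% were macrophages. Of the 3982 Activated_2 cells, 0 were in cluster 32, which held all 2899 macrophages. Class names followed the clusters, with no microglia of any state in cluster 32, so this 0 adds nothing about the state.

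The clustering of all cells, which is separate from that of the microglia, split the state. Cluster 21 held 2987 of its cells (75.0%) and cluster 1 held 955 (24.0%), while 38 were in cluster 30 and 2 in cluster 9. The surroundings of these portions differ: Activated_2 made up 54.6% of the microglia of cluster 21, but 15.8% of those of cluster 1, where 76.3% were Homeostatic. On the microglial map, Homeostatic cells made up 1.25% of the neighbours of the cells in cluster 21 and 17.8% of those of the cells in cluster 1, nearly all of the latter from homeostatic subcluster 5 (16.4%). Activated_3 cells made up 3.97% of the neighbours of the former and 0.0628% of those of the latter. The cluster 1 cells thus lay on the homeostatic side of the state and the cluster 21 cells away from it.

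**Figure D1:**
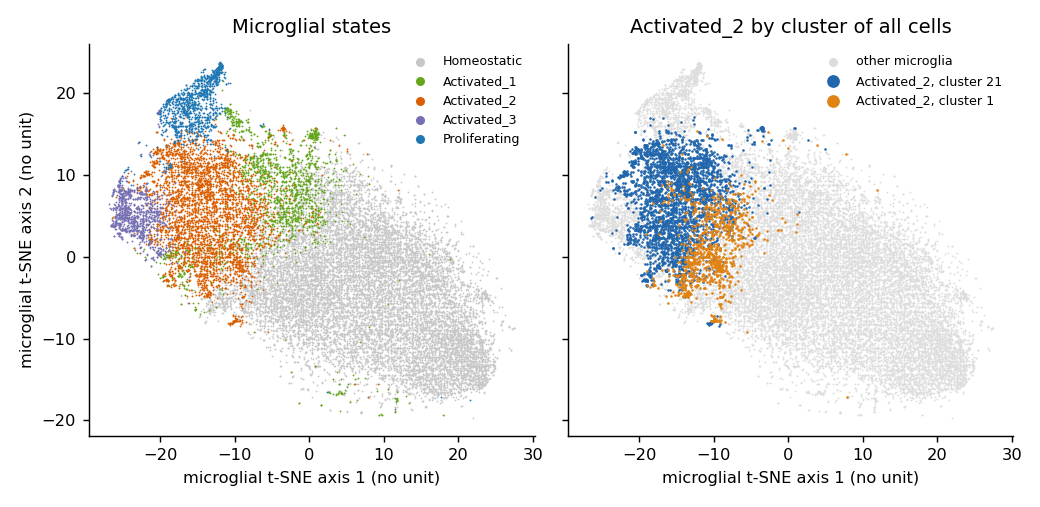
Every microglial cell on the deposited microglial t-SNE map, whose axes have no unit. On the left, cells are coloured by fine state, and Activated_2 lies between Homeostatic and Activated_3 cells; on the right, Activated_2 cells are coloured by their cluster among all cells, with the 955 cells of cluster 1 on the side of the homeostatic cells and the 2987 of cluster 21 farther away.

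Activated_2 made up a larger share of microglia in each NfL library than in any vehicle library. In vehicle libraries 1 to 4 the share was 4.90%, 11.8%, 12.1% and 13.8%. It was 21.9%, 22.6% and 16.1% in FL-NfL libraries 1 to 3, and 22.5%, 31.8% and 22.5% in CC-NfL libraries 1 to 3. The groups given NfL therefore did not overlap with vehicle, but they overlapped with each other. CC-NfL library 2 was the highest, with an exact binomial 95% interval of 29.8% to 33.8% that no other library's reached, and vehicle library 1 was the lowest, with 3.61% to 6.48%. FL-NfL library 2, CC-NfL libraries 1 and 3 and FL-NfL library 1 followed the highest in that order with overlapping intervals. The interval of FL-NfL library 3, the lowest NfL library, was 14.7% to 17.5% and overlapped that of vehicle library 4, 12.6% to 15.1%. These intervals cover counting error only.

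**Figure D2:**
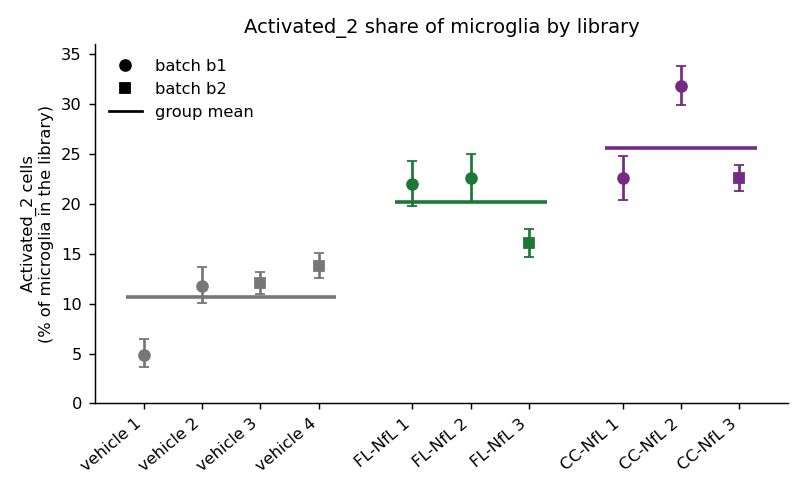
Activated_2 cells as a percentage of the microglia of each library, with exact binomial 95% intervals that cover counting error and a line at each group mean; circles are batch b1 and squares b2. The 6 NfL libraries, at 16.1% to 31.8%, sit above the 4 vehicle libraries, at 4.90% to 13.8%.

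Group means (± SD) were 10.6% ± 3.92 for vehicle (n = 4), 20.2% ± 3.59 for FL-NfL (n = 3) and 25.6% ± 5.34 for CC-NfL (n = 3). Limma called 2 of 5 states (40%) for CC-NfL, among them Activated_2 with a log2 odds ratio of 1.63 (SE 0.52, adjusted p = 0.0209). For FL-NfL it called 0 of 5 states (0%), while 1 had an unadjusted p below 0.05 and a quasi-binomial model called 0, and Activated_2 had a log2 odds ratio of 1.19 (SE 0.52, adjusted p = 0.151). For both proteins together it called 2 of 5 (40%), with 1.41 for Activated_2 (SE 0.44, adjusted p = 0.0182), which missed the threshold in the quasi-binomial model (1.01, adjusted p = 0.0526). Leaving out vehicle library 1, limma gave 1.16 for CC-NfL (adjusted p = 0.00689), 0.72 for FL-NfL (adjusted p = 0.175) and 0.94 for both (adjusted p = 0.0138). The FL-NfL and CC-NfL contrasts share the vehicle libraries here and throughout, so they are not independent. The CC-NfL call ended without CC-NfL library 1, 2 or 3 (adjusted p = 0.0534, 0.154 and 0.0722). The call for both proteins ended without vehicle library 3, FL-NfL library 1, FL-NfL library 2 or CC-NfL library 2 (adjusted p = 0.0524, 0.0640, 0.0554 and 0.0774). By exact two-sided permutation, p was 0.00476 for both proteins, the smallest that 6 against 4 libraries can give, and 0.0571 after adjustment over the 24 permutation tests of 6 measures. For each protein alone it was 0.0286, the smallest that 3 against 4 can give, and 0.0686 after adjustment. The other state that limma called for CC-NfL and for both proteins was Homeostatic, whose share fell. Its log2 odds ratios were -1.49 and -1.20 (adjusted p = 0.0240 and 0.0340). For CC-NfL, Activated_1 (0.65) and Activated_3 (0.95) leaned upward without a call. Shares of the same microglia depend on each other, so the rise and the fall are not separate results.

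The means of the groups lay farther apart in batch b1 than in b2, a difference that did not pass. The b1 means were 8.33% for vehicle, 22.2% for FL-NfL and 27.2% for CC-NfL. In b2 they were 12.9%, 16.1% and 22.5%, where each NfL value is 1 library. The effect of NfL in b2 minus that in b1 was -1.29 on the log2 odds scale (SE 0.69, 95% interval -2.82 to 0.24, adjusted p = 0.151 in limma).

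Among the 3 activated states, Activated_2 took a larger part after NfL. It made up 46.9%, 45.5%, 51.4% and 53.9% of activated microglia in vehicle libraries 1 to 4. The values were 55.6%, 57.9% and 62.1% with FL-NfL, and 58.0%, 64.6% and 60.9% with CC-NfL. Every NfL library was above every vehicle library, and on this measure vehicle library 1 lay within the range of its group. Means were 49.4% ± 3.93 (n = 4), 58.5% ± 3.29 (n = 3) and 61.2% ± 3.31 (n = 3). Limma called 1 of 3 states for FL-NfL (33.3%), with Activated_2 at 0.57 (SE 0.16, adjusted p = 0.0210), and 1 of 3 for CC-NfL (33.3%), with Activated_2 at 0.73 (SE 0.16, adjusted p = 0.00520). For both proteins it called 2 of 3 (66.7%), with Activated_2 at 0.65 (SE 0.13, adjusted p = 0.00394). The calls for CC-NfL and for both proteins held with each library left out in turn. The call for FL-NfL ended without vehicle library 1 or 3 or FL-NfL library 2 or 3 (adjusted p = 0.0572, 0.0619, 0.0650 and 0.138), without the batch term (0.0662) and in the quasi-binomial model (0.0760). In b1 alone, with 2 libraries a group, no contrast passed (0.61, 0.89 and 0.75 for FL-NfL, CC-NfL and both, adjusted p = 0.219, 0.0677 and 0.0744). Without the 3 libraries numbered 1 the calls for FL-NfL (adjusted p = 0.145) and CC-NfL (0.0600) ended. The exact permutation p was 0.0571 for FL-NfL, 0.0286 for CC-NfL and 0.00476 for both proteins, and 0.114, 0.0686 and 0.0571 after adjustment.

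A ratio of cells in a pair of states does not depend on the remaining states. Homeostatic microglia are the surveying cells of the undisturbed tissue. Activated_2 cells per Homeostatic cell numbered 0.0564, 0.171, 0.167 and 0.201 in vehicle libraries, 0.399, 0.402 and 0.223 with FL-NfL and 0.406, 0.743 and 0.403 with CC-NfL. No NfL library fell within the vehicle range, and FL-NfL library 3 was nearest to it. Limma called 1 of 10 pairs of states for CC-NfL (10%), this one, with a difference of 1.88 in the log2 ratio (SE 0.51, adjusted p = 0.0453). It called 1 of 10 for FL-NfL (10%), which was another pair, and gave 1.30 here (SE 0.51, adjusted p = 0.128). For both proteins it called 3 of 10 (30%), and all of them were ratios of Activated_2, here with 1.59 (SE 0.43, adjusted p = 0.0234). Without vehicle library 1 the values were 1.34 for CC-NfL (adjusted p = 0.00986), 0.75 for FL-NfL (adjusted p = 0.246) and 1.04 for both proteins (adjusted p = 0.0285). The value for FL-NfL and that for both proteins moved by over 1.5 times. The CC-NfL call ended without vehicle library 3, FL-NfL library 1 or 2, or CC-NfL library 1, 2 or 3 (adjusted p = 0.0734, 0.0720, 0.0687, 0.1003, 0.231 and 0.0636). It also ended in b1 alone (2.48, adjusted p = 0.115) and with a robust estimate of the spread (0.0517). The call for both proteins ended without vehicle library 3, FL-NfL library 1 or 2, or CC-NfL library 1 or 2 (adjusted p = 0.0576, 0.0566, 0.0553, 0.0543 and 0.0568) and in b1 alone (2.25, adjusted p = 0.0917).

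Relative to Proliferating microglia, named for dividing cells, Activated_2 rose after FL-NfL. Activated_2 cells per Proliferating cell numbered 1.84, 2.27, 2.73 and 2.30 in vehicle libraries, 4.00, 4.53 and 7.43 with FL-NfL and 3.96, 3.93 and 3.15 with CC-NfL. All NfL libraries were above all vehicle libraries, and all FL-NfL libraries were above all CC-NfL libraries. Against vehicle, limma gave 1.22 for FL-NfL (SE 0.31, adjusted p = 0.0298), 0.74 for CC-NfL (SE 0.31, adjusted p = 0.0950) and 0.98 for both (SE 0.26, adjusted p = 0.0234). FL-NfL minus CC-NfL was 0.48 (95% interval -0.25 to 1.21, adjusted p = 0.504), so the lack of overlap between the proteins did not pass. The FL-NfL call ended without vehicle library 3 or 4, FL-NfL library 2 or 3, or CC-NfL library 1 or 2 (adjusted p = 0.0819, 0.109, 0.105, 0.114, 0.0511 and 0.0536). The call for both proteins ended without the same libraries (adjusted p = 0.0576, 0.0818, 0.0553, 0.0512, 0.0543 and 0.0568). In b1 alone neither passed (1.06, adjusted p = 0.166, and 1.01, adjusted p = 0.0917).

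Activated_1 cells were the most frequent neighbours of Activated_2 on the map outside the state itself. Activated_2 cells per Activated_1 cell numbered 0.979, 1.46, 1.77 and 1.74 in vehicle libraries, 2.21, 1.78 and 2.75 with FL-NfL and 1.88, 2.50 and 2.78 with CC-NfL. The groups given NfL lay above vehicle, with FL-NfL library 2 at 1.78 next to vehicle library 3 at 1.77. Limma gave 0.69 for FL-NfL (SE 0.28, adjusted p = 0.128) and 0.78 for CC-NfL (adjusted p = 0.0950), both past the threshold in the quasi-binomial model (0.60 and 0.72, adjusted p = 0.0483 and 0.0212). For both proteins the ratio rose by 0.73 (SE 0.24, adjusted p = 0.0456), a call that ended without any 1 library other than vehicle library 2, with adjusted p from 0.0589 without FL-NfL library 3 to 0.154 without vehicle library 1. That call also ended without the batch term (0.65, adjusted p = 0.113), in b1 alone (0.79, adjusted p = 0.181) and without the 3 libraries numbered 1 (0.60, adjusted p = 0.133).

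Activated_3 was the state whose ratio to Activated_2 showed no call. Activated_2 cells per Activated_3 cell numbered 9.20, 1.93, 2.64 and 3.60 in vehicle libraries, 2.88, 6.04 and 4.04 with FL-NfL and 5.26, 6.83 and 3.53 with CC-NfL. The highest value was that of vehicle library 1 and rests on 46 against 5 cells. All groups overlapped, with and without that library. Limma gave 0.16 for FL-NfL (95% interval -1.0 to 1.31), 0.44 for CC-NfL (-0.71 to 1.60) and 0.30 for both (-0.68 to 1.28). These intervals allow a change as large as that found for Activated_1. Without vehicle library 1 the values were 0.63, 0.91 and 0.77 (adjusted p = 0.254, 0.127 and 0.103).

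**Figure D3:**
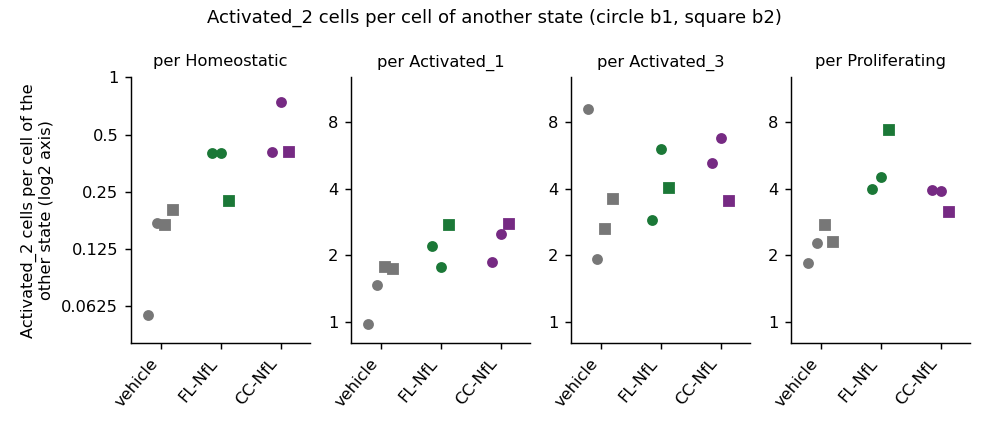
Activated_2 cells per cell of another microglial state in each library, on log2 axes with a separate scale for Homeostatic; circles are batch b1 and squares b2. NfL libraries lie above all vehicle libraries for Homeostatic, Activated_1 and Proliferating, while for Activated_3 vehicle library 1 is the highest of all at 9.20.

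As a share of all annotated cells the state did not pass. It made up 1.19%, 4.41%, 4.09% and 4.66% of annotated cells after vehicle, 7.11%, 8.63% and 4.00% after FL-NfL and 7.42%, 11.7% and 6.59% after CC-NfL. FL-NfL library 3 lay within the vehicle range, and the other NfL libraries lay above it. Means were 3.59% ± 1.62 (n = 4), 6.58% ± 2.36 (n = 3) and 8.57% ± 2.73 (n = 3). Limma called 5 of 25 labels for FL-NfL (20%), 4 for CC-NfL (16%) and 5 for both (20%), none of them Activated_2 microglia. Their log2 odds ratios were 1.02 (SE 0.60, adjusted p = 0.522), 1.46 (SE 0.60, adjusted p = 0.165) and 1.24 (SE 0.51, 95% interval 0.08 to 2.40, adjusted p = 0.164). Without vehicle library 1, the lowest on this measure, they were 0.37, 0.81 and 0.59 (adjusted p = 0.642, 0.231 and 0.413), each smaller by over 1.5 times. Macrophages, which sit in the same denominator, made up 1.05% to 1.60% of annotated cells in vehicle libraries, 5.49% to 9.55% after FL-NfL and 1.94% to 5.81% after CC-NfL. The part of these shifts in the share of all cells was not tested.

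The portion of the state in cluster 21 rose after each protein in limma. These portions were defined after the clusters of the state had been tabulated. Activated_2 cells of cluster 21 made up 2.34%, 8.03%, 7.40% and 10.5% of microglia in vehicle libraries, 19.6%, 19.1% and 11.2% with FL-NfL and 19.1%, 25.1% and 16.2% with CC-NfL. All NfL libraries were above all vehicle libraries, with FL-NfL library 3 nearest to them. Means were 7.06% ± 3.42 (n = 4), 16.6% ± 4.73 (n = 3) and 20.1% ± 4.53 (n = 3). Limma called 2 of 11 combinations of state and cluster for FL-NfL (18.2%), with 1.54 for this one (SE 0.48, adjusted p = 0.0392), and 4 of 11 for CC-NfL (36.4%), with 1.89 (SE 0.48, adjusted p = 0.00678). For both proteins it called 3 of 11 (27.3%), with 1.71 (SE 0.41, adjusted p = 0.00345). Without vehicle library 1 the values fell to 0.90 (adjusted p = 0.0591), 1.26 (0.00748) and 1.08 (0.00959), each by over 1.5 times. The FL-NfL call also ended without FL-NfL library 1 or 2 or CC-NfL library 2 (adjusted p = 0.0871, 0.184 and 0.0598) and without the 3 libraries numbered 1 (0.80, adjusted p = 0.0937). The CC-NfL call ended without CC-NfL library 2 (1.67, adjusted p = 0.126). In the quasi-binomial model FL-NfL (0.93, adjusted p = 0.216) and both proteins (1.14, adjusted p = 0.0725) missed the threshold. The exact two-sided permutation p was 0.0286 for each protein and 0.00952 for both. After adjustment it was 0.0686 in each case, so none passed. In b1 the mean of this portion was 5.19% for vehicle, 19.3% for FL-NfL and 22.1% for CC-NfL. The b2 values were 8.94%, 11.2% and 16.2%. The rise was not particular to Activated_2. For CC-NfL, limma also called the cluster 21 cells of Proliferating (1.18, adjusted p = 0.0469) and Homeostatic microglia (1.05, adjusted p = 0.0469). Those of Activated_1 (0.92, adjusted p = 0.0881) and Activated_3 (0.95, adjusted p = 0.184) were not called. Cluster 21 held on average 15.2% of all microglia in vehicle, 29.9% in FL-NfL and 34.5% in CC-NfL libraries.

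The Activated_2 cells of cluster 1, on the homeostatic side, showed no call. They made up 2.56%, 3.65%, 4.50% and 3.12% of microglia in vehicle libraries, 2.27%, 3.15% and 4.75% with FL-NfL and 3.16%, 6.32% and 6.19% with CC-NfL. All groups overlapped, although CC-NfL libraries 2 and 3 were the highest. Means were 3.46% ± 0.827, 3.39% ± 1.26 and 5.22% ± 1.79. Limma gave 0.02 for FL-NfL (95% interval -0.82 to 0.86, adjusted p = 0.986), 0.66 for CC-NfL (-0.18 to 1.50, adjusted p = 0.184) and 0.34 for both (-0.37 to 1.05, adjusted p = 0.524). With vehicle library 1 left out, the values were -0.05, 0.59 and 0.27 (adjusted p = 0.964, 0.207 and 0.589).

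**Figure D4:**
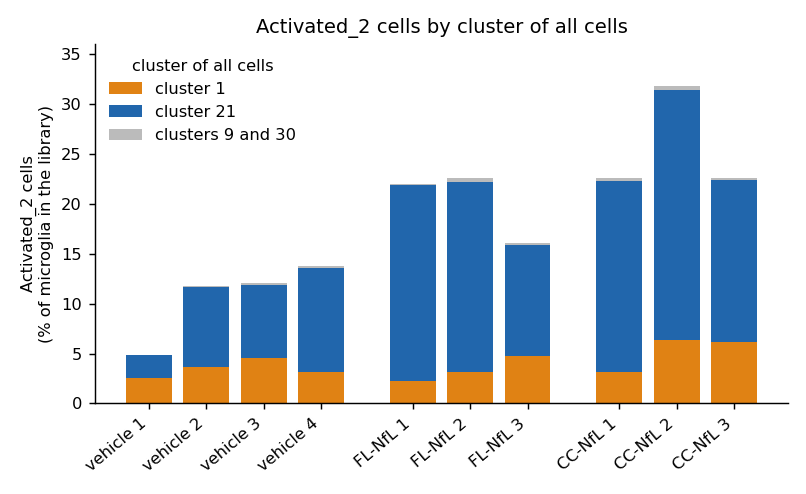
Activated_2 cells as a percentage of the microglia of each library, stacked by their cluster among all cells. The cluster 21 portion is 2.34% to 10.5% in vehicle libraries and 11.2% to 25.1% in NfL libraries, while the cluster 1 portion is 2.27% to 6.32% over all libraries.

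Within the state, the balance between these portions was tested directly. Cluster 21 held 47.8%, 68.3%, 61.4% and 76.1% of the Activated_2 cells after vehicle, 89.3%, 84.6% and 69.5% after FL-NfL and 84.7%, 78.8% and 71.8% after CC-NfL. Both b2 libraries given NfL lay within the vehicle range, and the 4 of b1 lay above it. Limma tested the ratio of cluster 21 to cluster 1 cells within 3 states and called 2 of 3 for FL-NfL (66.7%) and 2 of 3 for both proteins (66.7%), Activated_2 and Homeostatic in each case. For Activated_2 the difference in the log2 ratio was 1.37 for FL-NfL (SE 0.53, adjusted p = 0.0297), 1.05 for CC-NfL (SE 0.53, adjusted p = 0.0979) and 1.21 for both (SE 0.45, adjusted p = 0.0237). Within a contrast all 3 states had the same SE. Limma thus used 1 spread pooled over the states here, in place of that of Activated_2 itself. For CC-NfL 0 of 3 states were called (0%), while 1 had an unadjusted p below 0.05 and the quasi-binomial model called 0. These calls rest on vehicle library 1, with 22 cells in cluster 21 and 24 in cluster 1. Without it FL-NfL gave 0.84 (adjusted p = 0.144) and both proteins 0.68 (adjusted p = 0.183). The FL-NfL call also ended without vehicle library 2 or 3 or FL-NfL library 1 or 2 (adjusted p = 0.0705, 0.0640, 0.160 and 0.0970). That for both proteins ended without vehicle library 2 or 3, FL-NfL library 1 or 2, or CC-NfL library 1 (adjusted p = 0.0676, 0.0550, 0.0627, 0.0536 and 0.0611). In the quasi-binomial model, which gives small libraries less weight, neither passed (0.62, adjusted p = 0.290, and 0.51, adjusted p = 0.282). For CC-NfL the value without vehicle library 1 was 0.52 (adjusted p = 0.431), while the threshold was passed without vehicle library 4 (1.41, adjusted p = 0.0107). The effect of NfL on this balance in b2 minus that in b1 was -1.98 (SE 0.74, adjusted p = 0.0518). For vehicle, FL-NfL and CC-NfL in turn, cluster 21 held on average 58.1%, 86.9% and 81.8% of the Activated_2 cells in b1 and 68.8%, 69.5% and 71.8% in b2. By exact two-sided permutation of the cluster 21 percentages of all libraries, p was 0.114 for each protein and 0.0286 for both. After adjustment these were 0.196 and 0.0686, so none passed.

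**Figure D5:**
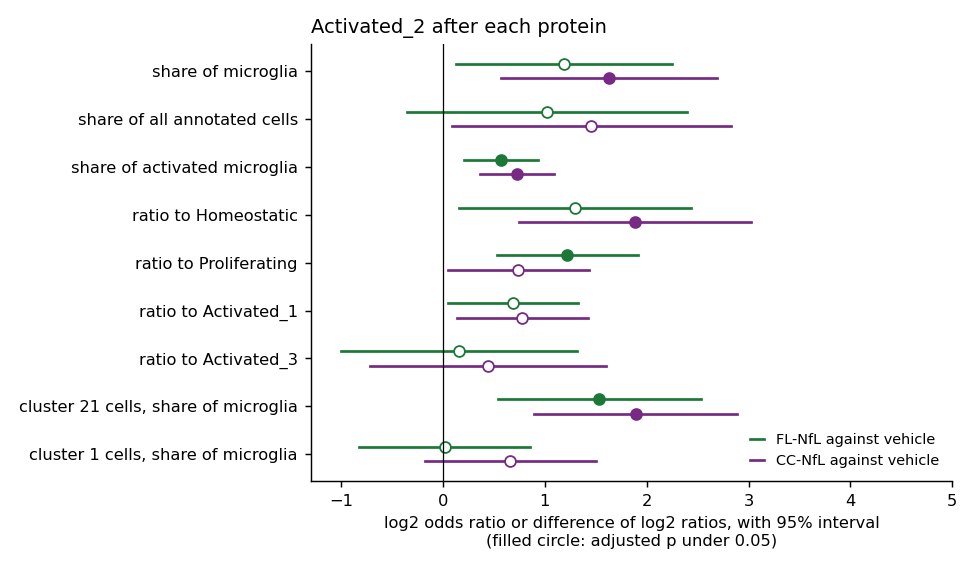
Limma estimates with 95% intervals for Activated_2 in the FL-NfL (green) and CC-NfL (purple) groups against the same vehicle libraries; shares are log2 odds ratios and ratios are differences of log2 ratios, and filled circles passed an adjusted p of 0.05. The share of activated microglia has the shortest intervals, at 0.57 and 0.73, and the cluster 1 cells lie nearest to 0 for FL-NfL, at 0.02.

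With all libraries, no difference in the map neighbours of Activated_2 cells passed after adjustment. Homeostatic cells made up 12.2%, 6.69%, 6.37% and 6.28% of their neighbours after vehicle, 4.26%, 4.08% and 6.95% after FL-NfL and 3.85%, 4.68% and 5.52% after CC-NfL. Of the NfL libraries, 5 of 6 lay below all vehicle libraries, and FL-NfL library 3 lay among them. Means were 7.89% ± 2.91 (n = 4), 5.09% ± 1.61 (n = 3) and 4.68% ± 0.833 (n = 3). By exact two-sided permutation p was 0.0238 for both proteins, or 0.119 after adjustment over the 5 neighbour states, 0.286 for FL-NfL and 0.0857 for CC-NfL. Without vehicle library 1 the difference for both proteins was -1.56 percentage points in place of -3.01 (exact permutation p = 0.0952, or 0.476 after adjustment). Without FL-NfL library 3 it was -3.42 (exact permutation p = 0.00794) and passed after adjustment (0.0397). For vehicle, FL-NfL and CC-NfL in turn, means were 9.47%, 4.17% and 4.27% in b1 and 6.32%, 6.95% and 5.52% in b2. Own-state neighbours averaged 78.8% ± 2.69 in vehicle, 80.3% ± 2.81 in FL-NfL and 83.2% ± 1.92 in CC-NfL libraries, with exact permutation p of 0.514 and 0.0857 against vehicle.

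Inside the state, cells of different vehicle libraries lay closer together on the map than cells of vehicle and NfL libraries. For each pair of libraries the 30 nearest Activated_2 cells of each cell of one library were taken, leaving out those of the same library. The other library's share of these neighbours was set against its share of all Activated_2 cells outside the first library. On the log2 scale this averaged 0.17 over the 24 ordered pairs of the same group and -0.02 over the 66 pairs of different groups. The difference was 0.19 (exact one-sided permutation of groups within batch, 1080 permutations, p = 0.0037). Pairs of vehicle libraries averaged 0.29 (12 ordered pairs), pairs given the same protein 0.04 (12), vehicle with NfL libraries -0.04 and FL-NfL with CC-NfL libraries 0.01. The test covers the 3 groups jointly, and the pairs given the same protein were not tested apart from the vehicle pairs. The value without vehicle library 1 was 0.11 (exact permutation p = 0.0111). With each library thinned to 46 cells, in 1 random draw, it was 0.0375 (exact permutation p = 0.274), so the difference was not detected there. The 30 neighbours then came from 460 cells in place of 3982, so this fit cannot separate equal cell numbers from wider neighbourhoods. In unplanned alternatives it was 0.30 for cluster 21 cells alone and 0.34 on the map of all cells (exact permutation p = 0.00556 and 0.00185).

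No difference between the proteins passed for this state. FL-NfL minus CC-NfL was -0.44 for the share of microglia (95% interval -1.57 to 0.68, adjusted p = 0.707) and -0.16 for the share of activated microglia (-0.55 to 0.22, adjusted p = 0.890). It was -0.59 for the ratio to Homeostatic cells (-1.80 to 0.62, adjusted p = 0.504), -0.36 for the cluster 21 portion (-1.41 to 0.70, adjusted p = 0.790) and -0.64 for the cluster 1 portion (-1.53 to 0.25, adjusted p = 0.471). All of these intervals include 0 and extend farther toward a higher value with CC-NfL. The ratio to Proliferating cells leaned the other way, at 0.48 (-0.25 to 1.21, adjusted p = 0.504). So did the balance of cluster 21 to cluster 1, at 0.32 (-0.87 to 1.51, adjusted p = 0.809). The intervals do not show that the proteins act alike. Limma called 0 of 5 states, 0 of 25 labels, 0 of 10 ratios, 0 of 3 activated states, 0 of 11 combinations of state and cluster and 0 of 3 balances between these proteins (0% in each). An unadjusted p below 0.05 was found for 1 of the 25 labels and for 0 in each of the other sets, while the quasi-binomial model called 0 in each. With 3 against 3 libraries an exact permutation p cannot go below 0.10.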

How the data were processed

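Droplet single-cell RNA libraries of 10 mice were processed with Cell Ranger 6.0.1 against GRCm38, per the submitters' processing notes. How cells were filtered, clustered, named and mapped, and how doublets were treated, is not given in the sources. No doublet caller was run, since the table holds no gene values. The authors' deposited table gives each barcode's library, cluster, class and state names, and its map coordinates, which were treated as scores without a unit. It holds no counts per gene, and 39352 barcodes without annotation were left out. This loss was uneven: each b1 library lost a larger part of its barcodes than any b2 library. The annotated part was smallest in FL-NfL library 1 of b1 (4220 of 14726) and largest in FL-NfL library 3 of b2 (11329 of 13692). With all barcodes as the denominator in place of annotated cells, the share of Activated_2 was still not called. The bearing of this loss on the shares of microglia and on the difference between batches was not tested. Condition and batch matched the labels in all 68914 annotated cells. Libraries are the replicates; the design gives as many mice as libraries in each group, but the labels name no animal for each library, so p-values measure the spread between libraries, which may be partly technical.

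Shares were tested as log2((cells + 0.5)/(other cells + 0.5)) and ratios of states as log2((cells + 0.5)/(cells + 0.5)) with limma 3.58.1 in R 4.3.3, fitting all 10 libraries at once with terms for group and batch. Adjustment was by Benjamini-Hochberg over all states, labels (with a mean of at least 10 cells), pairs or combinations, with a threshold of 0.05. Exact permutation tests went through all assignments of libraries to groups, within batch for mixing on the map. For each cell 30 neighbours were found with SciPy 1.17.1. It also gave the exact (Clopper-Pearson) 95% intervals for shares of single libraries. The scripts were tested on simulated data. Alternatives were a replicate block, no batch term, 1 added to counts, b1 alone, without the libraries numbered 1, a quasi-binomial model, a robust spread, other neighbour numbers and each library left out. The text names Activated_2 in full, other states as partners or neighbours, and clusters that hold Activated_2 cells. Members and lists were chosen with earlier results of these data known.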

Additional observations from a re-analysis of the deposited data

Results flagged for a closer look

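In groups of 4 libraries, a highest or lowest value whose gap to its nearest neighbour, as a part of the group's range, exceeded Dixon's 95% critical value was marked as standing apart, and chance marks about 1 in 20 groups. Of 15 vehicle measures tested, 3 had such a library, and each time it was vehicle library 1. Its Activated_2 cells were 1.19% of its annotated cells against 4.09% to 4.66% in the other vehicle libraries. Of their map neighbours, 12.2% were Homeostatic, against 6.28% to 6.69%, and 1.09% were Proliferating. The library held 46 Activated_2 cells, the fewest of all. The measures share these cells and are not independent.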

How the results depend on the processing

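Across 487 recomputed values of the main results, 426 kept their side of the threshold, 57 lost a call and 4 gained one. None changed sign among called values. Many of the 487 belong to contrasts with no call in the main fit, so 426 overstates how well the calls held. Across 564 values of the remaining results, which include the ratios to Activated_1 and Proliferating cells, 509 kept their side, 53 lost a call and 2 gained one. With the quasi-binomial model both proteins gave 1.01 for the share of microglia (adjusted p = 0.0526) and 1.14 for the cluster 21 portion (0.0725), FL-NfL gave 0.50 for the share of activated microglia (0.0760) and 0.93 for the cluster 21 portion (0.216), and the balance of cluster 21 to cluster 1 was 0.62 for FL-NfL (0.290) and 0.51 for both (0.282). In b1 alone the ratio to Homeostatic cells was 2.48 for CC-NfL (0.115) and 2.25 for both (0.0917), and the share of activated microglia 0.61 for FL-NfL (0.219), 0.89 for CC-NfL (0.0677) and 0.75 for both (0.0744), all with fewer libraries, while the balance for CC-NfL passed (1.78, adjusted p = 0.00950). Without the 3 libraries numbered 1 the share of activated microglia was 0.60 for FL-NfL (0.145) and 0.77 for CC-NfL (0.0600), the cluster 21 portion 0.80 for FL-NfL (0.0937) and the balance 0.62 for FL-NfL (0.431) and 0.51 for both (0.446). Without a batch term the share of activated microglia for FL-NfL was 0.53 (0.0662), and with a robust spread the ratio to Homeostatic cells for CC-NfL was 1.88 (0.0517). Mixing on the map was 0.0375 after thinning (exact permutation p = 0.274). The cause of these changes was not tested.

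With 1 library left out at a time, the share of microglia ranged from 1.16 to 1.86 for CC-NfL and from 0.94 to 1.61 for both proteins. The ratio to Homeostatic cells ranged from 1.34 to 2.13 for CC-NfL and from 1.04 to 1.85 for both, and the share of activated microglia for FL-NfL from 0.52 to 0.61. The cluster 21 portion ranged from 0.90 to 2.05 for FL-NfL and from 1.26 to 2.20 for CC-NfL. The balance ranged from 0.84 to 2.01 for FL-NfL, from 0.52 to 1.41 for CC-NfL and from 0.68 to 1.57 for both. The difference in Homeostatic map neighbours for both proteins ranged from -3.67 to -1.56 percentage points.

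Libraries of the same number were not treated as pairs, and the labels do not say what a number marks. Of 9 same-numbered pairs, 6 had a correlation of deviations above 0.1 (range -0.32 to 0.52). Of 9 libraries, 4 correlated best with their own number. Same-numbered libraries also share a batch, so this check cannot decide whether the libraries were paired. With the replicate block in place of batch, which leaves vehicle library 4 without a partner, the balance for CC-NfL passed (1.41, adjusted p = 0.0238). For both proteins the ratios to Activated_1 (0.74, adjusted p = 0.149) and to Proliferating cells (0.95, 0.0970) missed the threshold, as did the latter for FL-NfL (1.19, 0.101).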

Other observations

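Cluster 21, in which Activated_2 cells were the most numerous microglia, also held 172 cells that the microglial annotation names Homeostatic. These made up 0.368%, 0.824%, 0.503% and 0.932% of the Homeostatic cells of vehicle libraries 1 to 4, 1.86%, 2.37% and 1.43% after FL-NfL and 2.66%, 2.43% and 1.21% after CC-NfL, so every NfL library was above every vehicle library. As a share of microglia they rose in limma by 1.20 for FL-NfL (SE 0.41, adjusted p = 0.0392), by 1.05 for CC-NfL (adjusted p = 0.0469) and by 1.12 for both proteins (SE 0.35, adjusted p = 0.0189). With 1 library left out at a time, the FL-NfL call held in 3 of 10 fits and the CC-NfL call in 2 of 10. The FL-NfL call ended without vehicle library 1, 2 or 3, FL-NfL library 1, 2 or 3 or CC-NfL library 2 (adjusted p = 0.0591, 0.0554, 0.149, 0.0871, 0.188, 0.0843 and 0.0598), in b1 alone (0.0707) and in the quasi-binomial model (0.216). The CC-NfL call ended without vehicle library 1, 2 or 3, FL-NfL library 1 or 2 or CC-NfL library 1, 2 or 3 (adjusted p = 0.0648, 0.0692, 0.107, 0.0634, 0.0718, 0.166, 0.126 and 0.0577). It also ended with 1 added to counts (0.0601), in b1 alone (0.0623), without the 3 libraries numbered 1 (0.62, adjusted p = 0.177) and in the quasi-binomial model (0.0971). The call for both proteins held without vehicle library 1 (0.89, adjusted p = 0.0289) but ended without vehicle library 3 (0.0653), without FL-NfL library 2 (0.0540) and in the quasi-binomial model (0.0725). This comparison was chosen after the values were seen.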
